A study of Aspergillus nidulans with 6 samples.

Results

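The proline utilization cluster of the filamentous fungus Aspergillus nidulans was followed as 5 neighbouring genes, AN1729 to AN1733, out of 10983 counted features. The genes were chosen by locus number, because some of these neighbours had been seen to stand at opposite levels in the 2 strains compared here. The differences between the strains are therefore given for these genes as a description, without a p-value. RNA-seq read counts came from 3 libraries of strain LO1362 (genotype mcrA+, here WT) and 3 libraries of strain LO8158 (genotype mcrA-, here mcrA-deleted). All 6 came from liquid culture in glucose minimal medium for 1 day at 37 °C. Cultures were started from 1000000 spores in 150 ml and given uridine, uracil, pyridoxine and riboflavin. The labels state neither the nitrogen source nor whether proline was present. They call the libraries replicates without naming separate cultures, and p-values can reflect no more than how far these 6 libraries scatter, which could be technical in part. Only 1 strain stands for each genotype, and what else may distinguish LO8158 from LO1362 cannot be told apart from the labelled deletion.

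Fungi of this genus can live on proline as their source of nitrogen, carbon or both. A membrane transporter takes proline up, proline oxidase turns it into pyrroline-5-carboxylate, and a dehydrogenase turns that into glutamate. In A. nidulans the genes of these steps stand side by side, are induced by proline through an activator of their own, and are repressed when ammonium and glucose are both at hand. RefSeq (assembly ASM1142v1) names AN1731 as prnD, the proline oxidase gene, AN1732 as prnB, the proline transporter gene, and AN1733 as prnC, the dehydrogenase gene. It gives no symbol for AN1729 or AN1730, which are called by number here.

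In the coordinates of the files, which name the chromosomes of strain FGSC A4 and state no build, the cluster spans chromosome VII from 1732892 to 1745728. AN1729 (1732892 to 1736006), AN1730 (1736470 to 1737937) and prnD (1738086 to 1739838) lie on the minus strand. The genes prnB (1741361 to 1743232) and prnC (1743861 to 1745728) lie on the plus strand. The 1522 bases between prnD and prnB thus lie before the start of both, the widest gap in the cluster. The other gaps are 463 bases between AN1729 and AN1730, 148 bases between AN1730 and prnD, and 628 bases between prnB and prnC. Only AN1729 overlaps another feature: its last 63 bases, 2.02% of its length, are shared with AN10232 on the plus strand, and reads there can belong to either.

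Total counts were 3374534 to 6051839 per library. The 5 genes together held 260 to 614 counts per library, so no gene here had more than 250 reads in a library. The targeted locus was taken as AN8694 from background knowledge, since no label or table pairs mcrA with a locus. AN8694 was read 655 to 903 times per WT library and 273 to 422 times per mcrA-deleted library, and its mean CPM in the latter was 48.0% of WT, with no overlap between the groups. The feature was thus not at or near 0 in any library labelled mcrA-deleted. The labels do not say which part was removed, and where the remaining reads came from was not tested. The feature total separates the groups but cannot show how much of the locus was removed. The name "mcrA-deleted" is used throughout for libraries labelled so. WT replicate 3 stood apart: it differed from the other WT libraries by 46.1 and 54.1 times sampling noise (chi-square over its degrees of freedom), and those from each other by 9.97 times. The mitochondrial share of reads was 1.06% in mcrA-deleted replicate 1 and at most 0.159% elsewhere.

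The transporter and the last enzyme of the pathway stood at opposite levels in the strains, while the first enzyme did not differ by more than its spread. The RNA came from whole cultures, in which fewer cells with a transcript and less of it per cell cannot be told apart. On the log2 scale, mcrA-deleted over WT, prnB stood at -1.97 (SE 0.497), prnC at 2.29 (SE 0.356) and prnD at 0.06 (SE 0.394). AN1730 stood at -0.54 (SE 0.237) and AN1729 at -0.08 (SE 0.201). In edgeR's quasi-likelihood test over all 7852 tested features, 2 of the 5 genes were past an adjusted p of 0.05, prnC on the higher side and prnB on the lower, where 29.8% of all tested features were called. Higher calls made up 16.1% and lower calls 13.7% of tested features. Since the genes were picked on this contrast, nothing is read from that count. The groups did not overlap for AN1730, prnB and prnC, 3 of the 5, and for 48.9% of all tested features.

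The prnB transcript, for the transporter that brings proline into the cell, was measured at 29.2, 21.7 and 9.45 CPM (counts per 1000000 counts, with TMM-scaled library sizes) in WT replicates 1 to 3. In mcrA-deleted replicates 1 to 3 it stood at 8.01, 4.87 and 2.87 CPM. Every mcrA-deleted library lay below every WT library, but WT replicate 3 was much nearer to mcrA-deleted replicate 1 than to the other WT libraries. Mean levels were 20.1 ± 9.97 CPM for WT and 5.25 ± 2.59 CPM for mcrA-deleted (SD, n = 3 each), a level 3.92-fold lower after fitting. Counts behind these levels were 39 to 134 in WT and 14 to 28 in the mcrA-deleted group. The log2 value lay between -2.38 and -1.61 when 1 library was left out, and was -2.70 with both WT replicate 3 and mcrA-deleted replicate 1 dropped.

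The prnC transcript, for the dehydrogenase that yields glutamate, ran the other way. It stood at 7.41, 11.2 and 4.36 CPM in WT replicates 1 to 3 and at 33.5, 30.4 and 51.2 CPM in mcrA-deleted replicates 1 to 3. The highest WT library, replicate 2, lay well under the lowest mcrA-deleted library, also replicate 2. The means were 7.67 ± 3.45 and 38.4 ± 11.2 CPM (SD, n = 3 each), a level 4.9-fold higher after fitting, from 18 to 68 counts in WT and 117 to 250 in the mcrA-deleted group. The log2 value lay between 2.03 and 2.69 with 1 library left out.

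The prnD transcript, for the oxidase that starts proline breakdown, had the lowest level per kilobase of the 5 in WT. It stood at 5.45, 7.60 and 3.88 CPM in WT and at 4.86, 8.77 and 4.10 CPM in the mcrA-deleted libraries, replicates 1 to 3 in each. The groups overlapped over most of their ranges. With 16 to 46 counts per library, its SD on the log2 scale was 0.45 in WT and 0.54 in the mcrA-deleted group, where counting alone gives 0.29 and 0.30. Leaving out single libraries moved its log2 value from -0.35 to 0.34, so these data give it no direction.

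The genes on the far side of prnD, AN1730 and AN1729, differed less. AN1730 stood at 27.9, 24.6 and 22.5 CPM in WT and at 20.3, 19.7 and 11.7 CPM in the mcrA-deleted libraries. All WT libraries were above all mcrA-deleted libraries, by a narrow gap between WT replicate 3 and mcrA-deleted replicate 1. AN1729 stood at 30.7, 36.4 and 22.8 CPM in WT and at 32.0, 26.7 and 26.8 CPM in the mcrA-deleted libraries. Here the WT range enclosed the mcrA-deleted range, and the sign of the log2 value turned to 0.08 with library size alone as the scaling and without WT replicate 2.

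**Figure D1:**
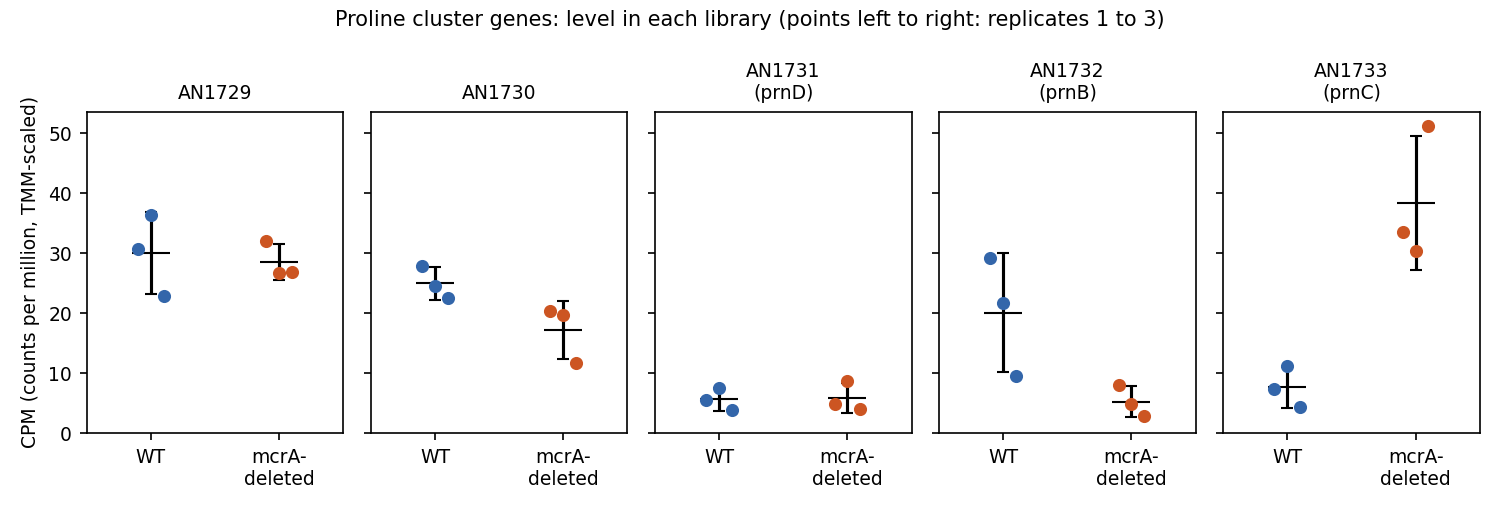
Level of each of the 5 proline cluster genes in each library, in CPM on a linear axis from 0. Points are libraries (replicates 1 to 3 from left to right), horizontal bars are group means and error bars are SDs over 3 libraries; prnB is lower and prnC higher in the mcrA-deleted libraries with no overlap, while prnD and AN1729 overlap.

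The summed level of the cluster was nearly level between the strains while its make-up shifted. The 5 genes together stood at 88.4 ± 22.0 CPM for WT and 95.3 ± 4.28 CPM for mcrA-deleted (SD, n = 3 each). WT replicate 3, at 63.0 CPM, was the one low library, against 90.4 to 101 CPM in the other 5. Shares within the cluster do not depend on how libraries are scaled to each other. They come from the counts on which the genes were chosen, so they are a description and no separate support. A larger share of 1 gene also lowers the shares of the others. The share of prnC in the cluster's counts was 7.36% (95% Wilson interval 5.31 to 10.1), 11.1% (8.83 to 13.8) and 6.92% (4.42 to 10.7) in WT replicates 1 to 3. It was 33.9% (29.1 to 39.1), 33.6% (29.5 to 38.0) and 53.0% (48.5 to 57.4) in mcrA-deleted replicates 1 to 3. None of the WT intervals reached those of the mcrA-deleted libraries. The share of prnB was 29.0% (25.1 to 33.3), 21.3% (18.3 to 24.7) and 15.0% (11.2 to 19.8) in WT. It was 8.12% (5.67 to 11.5), 5.39% (3.68 to 7.83) and 2.97% (1.77 to 4.92) in the mcrA-deleted libraries. Here the intervals of WT replicate 3 and mcrA-deleted replicate 1 met, between 11.2 and 11.5%. The share of AN1729 moved little, from 30.5 to 36.2% in WT and from 27.8 to 32.5% in the mcrA-deleted group, and that of prnD lay between 4.24 and 9.70% over all 6 libraries. The share of AN1730 was 24.3 to 35.8% in WT and 12.1 to 21.8% in the mcrA-deleted group, with no overlap of the shares themselves. Its intervals did overlap between the groups, as in WT replicate 2 (21.0 to 27.8) and mcrA-deleted replicate 2 (18.3 to 25.7). These intervals cover counting error within 1 library only and hold no spread between replicates. Reads carried no molecular identifiers, so even that error may be larger than given.

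**Figure D2:**
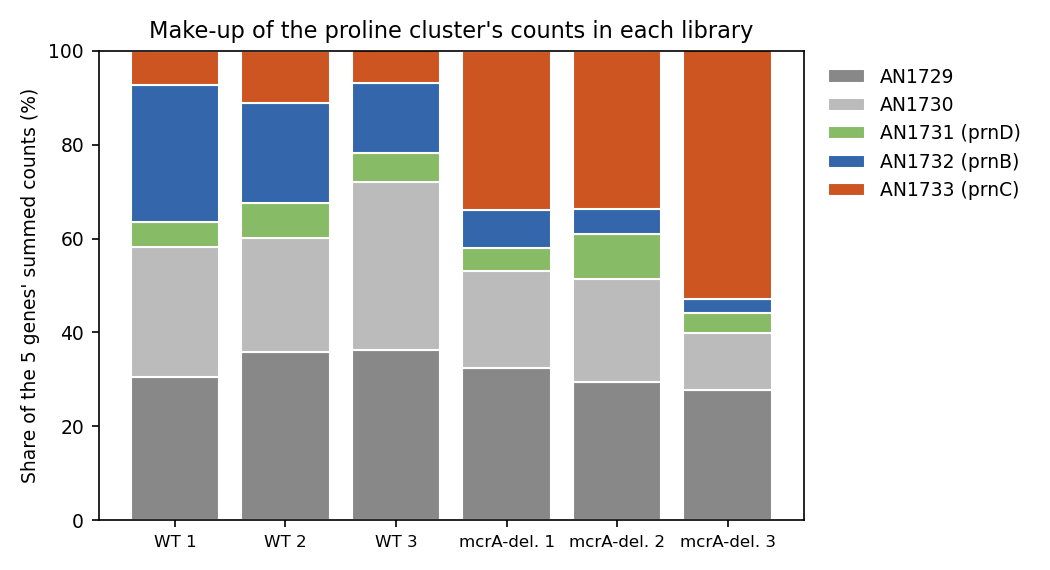
Share of each gene in the summed counts of the 5 proline cluster genes, in percent, as stacked bars for each library (WT replicates 1 to 3, then mcrA-deleted replicates 1 to 3). The prnC part grows from 6.92 to 11.1% in WT to 33.6 to 53.0% in the mcrA-deleted libraries, and the prnB part shrinks from 15.0 to 29.0% to 2.97 to 8.12%.

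Levels between genes were compared per kilobase of feature, which counts introns where a gene has them. In WT, AN1730 was highest at 17.0 ± 1.85 CPM per kilobase, in 3 of 3 libraries. Below it came prnB at 10.7 ± 5.33 and AN1729 at 9.62 ± 2.19 CPM per kilobase, whose order changed between libraries, then prnC at 4.11 ± 1.84 and prnD at 3.22 ± 1.07 CPM per kilobase (SD, n = 3). In WT, prnC was above prnD in 3 of 3 libraries but by less than the SD of either. In the mcrA-deleted group prnC was highest in 3 of 3 libraries, at 20.5 ± 6.01 CPM per kilobase. AN1730 followed at 11.7 ± 3.28, AN1729 at 9.16 ± 0.976, prnD at 3.37 ± 1.43 and prnB at 2.80 ± 1.38 CPM per kilobase, and the last pair differed by less than their SDs. AN1729 was above AN1730 in mcrA-deleted replicate 3, and those also differed by less than the SD of AN1730. Ranked by level per kilobase among all 10983 features, prnC moved from the 34.4th to 44.0th percentile in WT to the 60.2nd to 72.4th. The rank of prnB went from the 41.4th to 61.2nd percentile to the 27.9th to 37.2nd.

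Ratios between genes of one library need no scaling of libraries. They rest on the same counts on which the genes were chosen, so they too are only a description. Per kilobase, prnC stood at 0.254, 0.520 and 0.463 times the level of prnB in WT replicates 1 to 3 and at 4.19, 6.25 and 17.9 times in mcrA-deleted replicates 1 to 3. Both enzymes of the pathway were at similar levels in WT, with prnC at 1.28, 1.39 and 1.06 times prnD. In the mcrA-deleted libraries prnC was at 6.46, 3.25 and 11.7 times prnD. The transporter stood at 5.02, 2.67 and 2.28 times prnD in WT and at 1.54, 0.520 and 0.656 times in the mcrA-deleted libraries. The order of these ratios separated the strains for each of the 3 pairs.

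Replicates of one strain also varied, a measure that the choice of genes did not use. Between the highest and the lowest library of a group, prnB differed 3.09-fold in WT and 2.79-fold in the mcrA-deleted group. Its SD on the log2 scale, 0.82 in WT and 0.68 in the mcrA-deleted group, was larger than that of 93.9% and 94.5% of tested features, and larger than the 0.17 and 0.32 that counting gives. The SD of prnC, 0.64 in WT and 0.40 in the mcrA-deleted group, stood at the 90.1st and 80.7th percentiles. AN1729 in the mcrA-deleted group and AN1730 in WT were near the counting limit, with SDs of 0.15 in each case against 0.13. Features with few reads have larger SDs throughout, and the percentiles are not corrected for that.

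Neighbours with calls on opposite sides were counted over the whole genome, where 16.1% of tested features were called higher and 13.7% lower. How often neighbours differ in their calls depends on these shares. Among 2839 pairs of adjacent tested genes on 1 strand, 3.38% had 1 gene called higher and the other lower, and 5.25% had both called on the same side. The log2 values of prnB and prnC differed by 4.26, where the median difference of such pairs was 0.60, and 2.32% of the pairs differed by more. Among 4361 runs of 5 adjacent tested genes, 20.1% held calls in both directions, so this alone is common. The range of log2 values in a run had a median of 1.32, and 5.64% of the runs spanned more than the 4.26 of the proline cluster. Besides the proline cluster, 20 runs held both a value at or under that of prnB and a value at or over that of prnC. Successive runs share genes, so 1 locus can be counted in several of them. These figures place the cluster among its like and are not a test, since it was chosen for this feature.

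**Figure D3:**
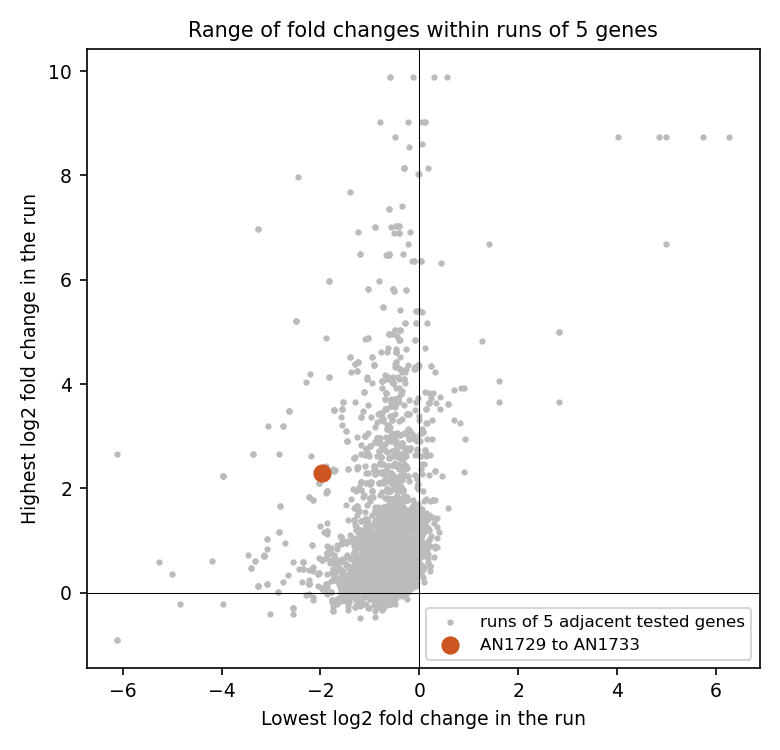
Lowest against highest log2 fold change (mcrA-deleted over WT) within each of 4361 runs of 5 adjacent tested genes, as grey points, with AN1729 to AN1733 in orange. The proline cluster, at -1.97 and 2.29, lies on the edge of the cloud toward the upper left, where both values are far from 0.

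Of the 5 genes on each side of the cluster, 7 had enough counts for the test. It called 1 higher (AN1726) and 1 lower (AN10232), a share near the 29.8% called over all tested features, with a median log2 value of -0.14 against 0.00214 over all tested features. AN1726 rose by 1.18 (SE 0.255; adjusted p = 0.0136 in edgeR's quasi-likelihood test), from 5.89 to 8.43 CPM in WT to 12.0 to 18.6 CPM in the mcrA-deleted libraries. Its call was lost without mcrA-deleted replicate 2 (adjusted p = 0.0538; 0.00215 to 0.0538 over all alternatives in edgeR and DESeq2). AN10232, which meets AN1729 end to end, fell (log2 -1.14, SE 0.232; edgeR adjusted p = 0.0111), from 13.6 to 18.2 CPM in WT to 5.72 to 8.40 CPM, and passed in 13 of 13 alternatives. Next to prnC the picture was different: AN1734, AN10233 and AN11313 had 1, 2 and 0 counts over all 6 libraries and were not tested, so prnC, 123 bases from AN1734, bordered on transcripts not detectable at this depth. The nearest tested gene on that side, AN10230, stood at -0.14 (SE 0.201; edgeR adjusted p = 0.624).

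**Figure D4:**
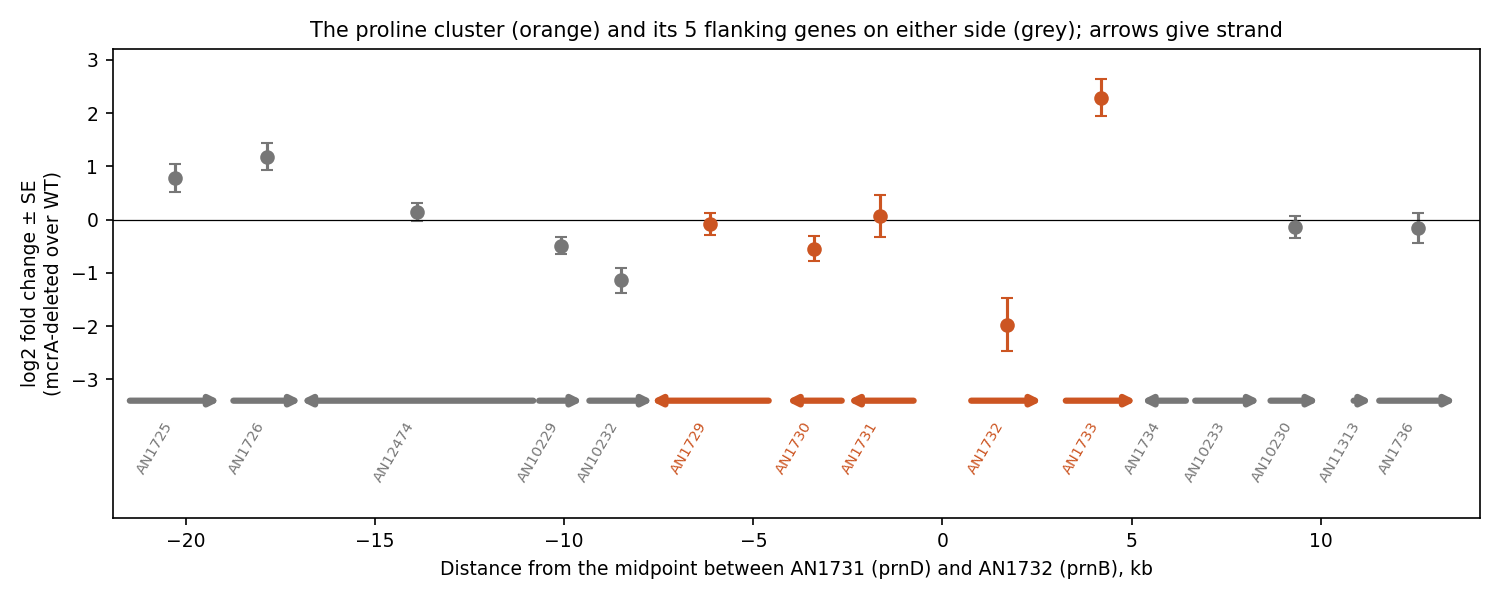
Log2 fold change (mcrA-deleted over WT) with its SE for the proline cluster genes (orange) and the 5 genes on either side (grey), against distance in kb from the middle of the gap between prnD and prnB. Arrows show extent and strand, and the 3 genes without a point had too few counts to be tested; only prnB and prnC lie beyond 1.5 in either direction.

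Other genes of proline, arginine and nitrogen use were taken from a list of 28 loci in 4 groups, written from background knowledge of A. nidulans. RefSeq gives a symbol for 12 of them, and the others are called by locus number. Earlier results of these data were known when the list was chosen. Counts and p-values of the listed genes are therefore a description and no independent support. All 28 were tested: 5 rose, 5 fell and 18 did not pass, where 29.8% of all tested features were called (16.1% higher and 13.7% lower), so the count is near the background. Their median log2 value was -0.08. In the group of arginine and proline breakdown outside the cluster, 0 of 3 rose and 1 fell, too few to set against the background. That gene, AN2901 (chromosome VI, 2453783 to 2455345), stood at 104, 78.2 and 35.6 CPM in WT replicates 1 to 3 and at 24.3, 21.4 and 13.9 CPM in mcrA-deleted replicates 1 to 3. Its WT replicate 3 was the lowest of the WT libraries and its mcrA-deleted replicate 3 the lowest of all, as was the case for prnB. AN2901 thus fell (log2 -1.87, SE 0.397; adjusted p = 0.0128 in edgeR's quasi-likelihood test), and passed in 13 of 13 alternatives. The gene car2 (AN1810), named for the ornithine aminotransferase of yeast, whose product leads into the same pyrroline-5-carboxylate as proline oxidase, did not pass: it stood at 72.1 ± 2.44 CPM for WT and 61.7 ± 7.0 CPM for mcrA-deleted (SD, n = 3 each; log2 -0.22, SE 0.126). AN7451 did not pass either (log2 0.13, SE 0.260).

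Of 11 regulators of nitrogen and carbon use, 1 rose, 2 fell and 8 did not pass, near the 29.8% called over all tested features, with a median log2 value of 0.02. The gene areA (AN8667), the activator of genes for poorer nitrogen sources, stood at 170 ± 18.4 CPM for WT and 197 ± 12.7 CPM for mcrA-deleted (SD, n = 3 each; log2 0.21, SE 0.133; edgeR adjusted p = 0.267). The gene creA (AN6195), the repressor that acts when glucose is present, rose by 0.49 (SE 0.15; edgeR adjusted p = 0.0457), from 226, 289 and 227 to 327, 364 and 350 CPM. This call was just past the threshold: it held in 6 of 13 alternatives and in 1 of 6 leave-one-out fits, that without WT replicate 2, with adjusted p from 0.0138 to 0.145. AN4170 fell (log2 -1.43, SE 0.281; edgeR adjusted p = 0.0097), from 274 to 469 CPM in WT to 102 to 186 CPM. AN8168 fell from 61.0 to 85.7 CPM to 36.3 to 43.5 CPM (log2 -0.90, SE 0.162; edgeR adjusted p = 0.00729). Both passed in 13 of 13 alternatives.

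Of 8 genes for ammonium, glutamate and nitrate assimilation, 0 rose, 1 fell and 7 did not pass, against 16.1% higher and 13.7% lower over all tested features, with a median log2 value of -0.32. The one that fell was crnA (AN1008), a nitrate transporter gene, at 668, 454 and 485 CPM in WT and 270, 104 and 154 CPM in the mcrA-deleted libraries (log2 -1.61, SE 0.349; edgeR adjusted p = 0.0138). All mcrA-deleted libraries were below all WT libraries, and the call was lost only without mcrA-deleted replicate 3 (adjusted p = 0.0525; 4.74e-05 to 0.0525 over all alternatives in edgeR and DESeq2). Nitrate reductase niaD and nitrite reductase niiA, its neighbours in the genome, stood at -0.24 (SE 0.228) and -0.17 (SE 0.244) and did not pass. Glutamine synthetase glnA (AN4159) did not pass at -0.53 (SE 0.231; edgeR adjusted p = 0.121), at levels of 7950 ± 1480 and 5500 ± 335 CPM (SD, n = 3 each).

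Of 6 genes for other nitrogen sources, 4 rose, 1 fell and 1 did not pass, against 16.1% higher and 13.7% lower over all tested features, with a median log2 value of 1.12. Whether this group differs from the others was not tested. The gene hxA (AN5613), for the purine hydroxylase that makes uric acid, rose by 1.69 (SE 0.196; edgeR adjusted p = 0.0019), from 102, 94.0 and 91.3 CPM to 242, 296 and 393 CPM. The gene gatA (AN2248), for the transaminase of gamma-aminobutyrate, rose by 1.56 (SE 0.27; edgeR adjusted p = 0.00643), from 108, 140 and 178 CPM to 309, 554 and 391 CPM. In both, the groups stood well apart. AN8777 rose by 2.02 (SE 0.268; edgeR adjusted p = 0.00271), from 18.2 to 29.3 CPM in WT to 66.1 to 122 CPM. AN6730 fell (log2 -1.28, SE 0.162; edgeR adjusted p = 0.0024), from 180 to 241 CPM to 73.9 to 90.4 CPM. These calls held in 13 of 13 alternatives. AN9470, named after its value was seen as the remaining one that rose, was at the threshold (log2 0.68, SE 0.216; edgeR adjusted p = 0.049) and passed in 7 of 13 alternatives, with adjusted p from 0.00871 to 0.158.

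**Figure D5:**
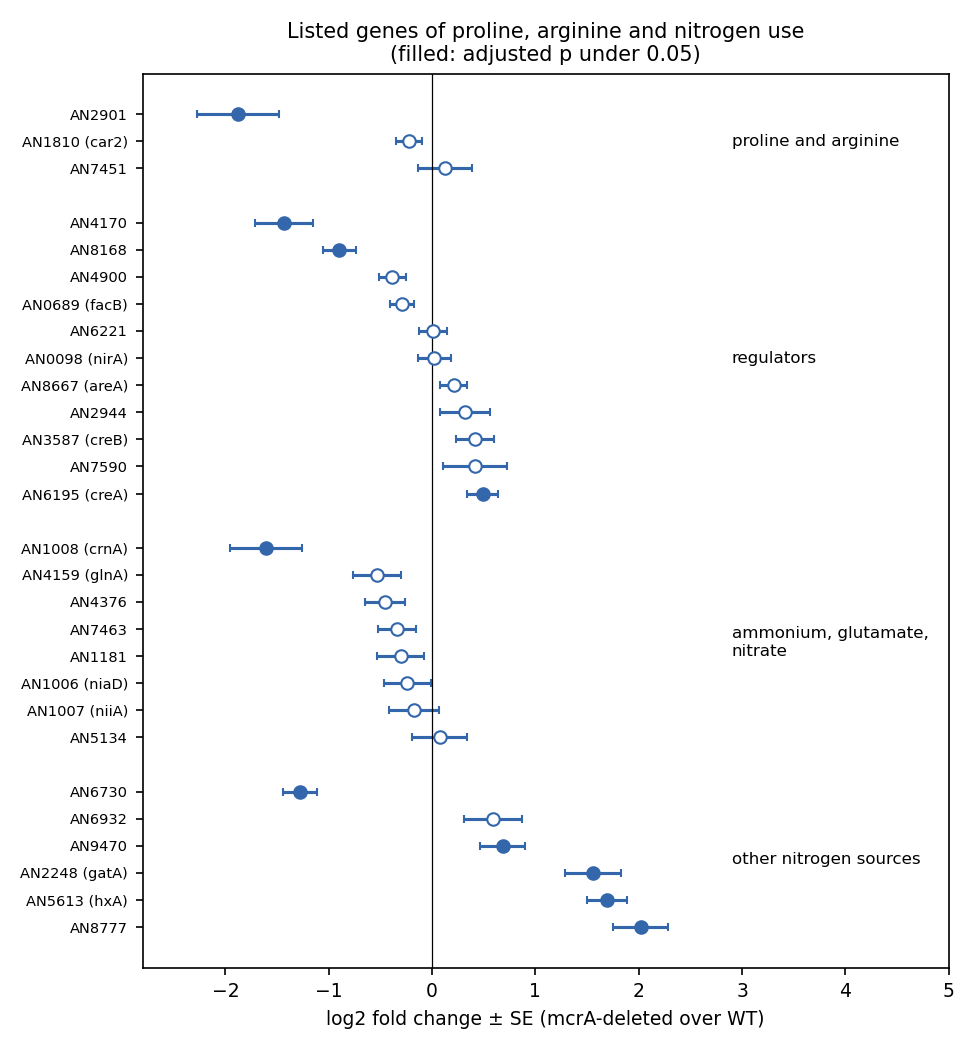
Log2 fold change (mcrA-deleted over WT) with its SE for the 28 listed genes outside the cluster, by group; filled points passed an adjusted p of 0.05 in edgeR's quasi-likelihood test. AN8777 lies farthest to the right at 2.02, and AN2901 lies farthest to the left at -1.87.

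The genes most like each member in their pattern over the 6 libraries were taken from 6460 tested features with a mean of at least 10 CPM. Likeness was the correlation of log2 CPM, a description that rests on 6 points sharing depth and strain. For prnB they were AN1182 (r = 0.9991), gel2 (AN0558; 0.9989) and AN11961 (0.998), whose log2 fold changes were -0.46, -0.84 and -0.37, all smaller in size than that of prnB. For prnC they were chsG (AN2523; 0.9975), AN3445 (0.9973) and AN0144 (0.9943), at 0.75, 0.31 and 0.56. For prnD they were AN1151 (0.969), tlgB (AN2048; 0.9683) and AN2211 (0.9533), at 0.20, 0.04 and -0.01. For AN1730 they were AN4777 (0.9896), AN4534 (0.9884) and AN7554 (0.987), and for AN1729 AN10215 (0.9862), AN0173 (0.9767) and AN5799 (0.9739). Counts of highly similar features varied widely: 286 features reached 0.95 with prnB, 199 with prnC and 98 with AN1730, against 7 with AN1729 and 3 with prnD. The strains did not overlap for prnB, prnC and AN1730, as for 48.9% of all tested features, and the genes were chosen on this contrast. These counts are therefore a description only.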

How the data were processed

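Polyadenylated RNA was sequenced as 6 strand-specific libraries, per the labels' protocols. The authors deposited 1 raw count per feature and library, per the file headers, with no normalization. CASAVA and HISAT (version 1) are named in the submitters' processing notes; the counting tool, its use of strand, the build and the annotation were not stated there, in the labels or in the headers. Counts were scaled by TMM, filtered with filterByExpr (minimum count 10), which kept 7852 of 10983 features and all 5 members, and tested with edgeR 4.0.16 in R 4.3.3 (quasi-likelihood test, two-sided, genotype as the only term, Benjamini-Hochberg adjustment over all tested features, called under 0.05). The test was tried on simulated counts first. The filter left out 3131 features. Log2 CPM used a prior count of 2. DESeq2 1.42.0 was an alternative.

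The members and lists were chosen with earlier results of these data known. Named are the members, 5 flanking features per side, the whole arginine and proline group, up to 4 called members of each other group by size of change or 2 of highest level, and 3 alike genes per member. The genes areA, glnA, niaD, niiA and AN9470 were added outside this rule. The regulator creB is AN3587 in RefSeq, which replaced another locus in the list. A list of amino acid permeases, and annotated additions to the proline list, were planned but not made, since no annotation with descriptions was used here. RefSeq matched 10029 features, 778 with a symbol. Replicate libraries differed by at least 9.97 times what sampling noise gives (chi-square over its degrees of freedom), so all were kept as separate. No per-sample column was left unmapped (0 columns).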

Additional observations from a re-analysis of the deposited data

How the results depend on the processing

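The log2 values of prnB and prnC kept their sign in all 13 alternatives, from -2.70 to -1.61 and from 2.03 to 2.69. Leaving out 1 library gave 0 to 1 cluster members called lower. The call of prnB held in 2 of 6 such fits and in 9 of 13 alternatives, that of prnC in 6 of 6 and 13 of 13. Nothing is read from these calls, since the genes were chosen on this contrast. With both WT replicate 3 and mcrA-deleted replicate 1 dropped, AN1730 stood at -0.74, AN1729 at -0.33, crnA at -2.12 and AN7451, which was not called, at -0.10 in place of 0.13; 1622 features were then higher and 1361 lower. Over all features, leaving out 1 library gave 758 to 1496 higher and 618 to 1171 lower calls; library size alone gave 1660 higher and 639 lower, against 1265 and 1078, and moved the median log2 value to 0.175. Among flanking features, lower calls numbered 2 with the DESeq2 Wald test, the replicate block, and with both WT replicate 3 and mcrA-deleted replicate 1 dropped, and 1 to 2 with 1 library left out; higher calls were 0 to 1 there. Regulators called higher numbered 2 with the replicate block, 0 with no count filter or without those 2 libraries, and 0 to 1 with 1 left out. Assimilation genes called lower numbered 3 with the DESeq2 Wald test, 2 without those 2 libraries and 0 to 1 with 1 left out. Over single genes outside the cluster, a call was lost 15 times and gained 10 times among the alternatives, and no called value changed direction. Causes were not tested. Same-numbered libraries of the strains deviated together with r of 0.26, -0.08 and 0.17, and differently numbered ones with r from -0.26 to 0.13. Whether the numbers mark a pairing cannot be told from so few values. With the replicate block 1333 features were higher and 1170 lower, and prnB and prnC stood at -1.92 and 2.29. No value came for prnD at a mean count of at least 50. Depth limits prnD, at 16 to 46 counts per library, and prnB in the mcrA-deleted group, at 14 to 28.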
